A study of Homo sapiens with 4 samples.

Results

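The miR-181 family was followed through 4 small RNA libraries of HT29 and HCT15, cell lines established from human colorectal adenocarcinomas. There was 1 library of spheres and 1 of parental cells per line, and no replicate. The family was taken as 7 named mature arms, hsa-miR-181a-5p, hsa-miR-181b-5p, hsa-miR-181c-5p, hsa-miR-181d, hsa-miR-181a-3p, hsa-miR-181a-2-3p and hsa-miR-181c-3p, written without the species prefix from here on. All 7 were found among the 1882 miRNA names shared by the files, and each had reads in all 4 libraries. HT29 spheres and HCT15 spheres were grown in DMEM-F12 supplemented with N2 Plus, bFGF and EGF (10 ng/ml of each factor). HT29 parental cells were grown in DMEM and HCT15 parental cells in RPMI, both with 10% FBS, and all 4 media held 1% penicillin-streptomycin. A CO2 level, 5%, is given for both parental cultures and for neither sphere culture. The labels call the spheres cancer stem cells; no marker protein was measured here. Sphere growth and medium changed together, so the effects of one and the other cannot be told apart, and nothing in the sources says whether a culture was repeated.

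MicroRNAs are cut from hairpin precursors, and usually one arm, the guide, is kept by Argonaute while the other, the passenger, is mostly degraded. A miRNA finds messenger RNAs to repress mainly through its seed near the 5′ end. The miR-181 family is best known from the thymus, where miR-181a tunes T cell receptor signalling, and its members have been studied in liver and colorectal tumours.

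The mature sequences are shown first because the arms that share a seed, and those that tell the gene copies apart, decide how the levels can be read. They were matched by name in the RefSeq table (GRCh38.p14) and are written 5′ to 3′ with the seed, bases 2 to 8, in capitals; miR-181d is named miR-181d-5p there.
miR-181a-5p: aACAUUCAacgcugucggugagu
miR-181b-5p: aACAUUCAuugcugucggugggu
miR-181c-5p: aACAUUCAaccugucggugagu
miR-181d: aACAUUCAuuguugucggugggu
miR-181a-3p: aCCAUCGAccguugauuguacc
miR-181a-2-3p: aCCACUGAccguugacuguacc
miR-181c-3p: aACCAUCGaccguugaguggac
The 4 5p arms shared 1 seed, ACAUUCA. The only other entry with it that the files named was miR-4262, which was listed at 0 in all 4 libraries. The 3p arms had 3 different seeds. Counted from 1 at the 5′ end, miR-181b-5p differed from miR-181a-5p by A9U, C10U and A21G. miR-181d differed from miR-181b-5p by C12U alone, and miR-181c-5p was miR-181a-5p with 1 base deleted at position 11. miR-181a-2-3p differed from miR-181a-3p by U5C, C6U and U16C. Bases 1 to 15 of miR-181a-3p recur as bases 2 to 16 of miR-181c-3p.

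The family comes from 3 pairs of hairpins. MIR181A1 (chr1:198859044-198859153, minus strand) and MIR181B1 (chr1:198858873-198858982) lie 61 bases apart in an intron of the noncoding host gene MIR181A1HG. MIR181A2 (chr9:124692442-124692551, plus strand) and MIR181B2 (chr9:124693710-124693798) lie 1158 bases apart in an intron of MIR181A2HG, antisense to NR6A1. MIR181C (chr19:13874699-13874808, plus strand) and MIR181D (chr19:13874875-13875011) lie 66 bases apart in an intron of NANOS3. Both copies of miR-181a give an identical 5p arm, so its reads cannot be assigned to a copy, and the same holds for miR-181b-5p. The 3p arms do separate the miR-181a copies, since miR-181a-3p comes from MIR181A1 and miR-181a-2-3p from MIR181A2. The hairpins whose 2 arms are compared in the results are printed below, with the mature arms in capitals.
MIR181A1: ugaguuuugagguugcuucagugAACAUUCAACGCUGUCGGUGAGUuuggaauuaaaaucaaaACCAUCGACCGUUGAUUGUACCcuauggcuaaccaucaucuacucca
MIR181A2: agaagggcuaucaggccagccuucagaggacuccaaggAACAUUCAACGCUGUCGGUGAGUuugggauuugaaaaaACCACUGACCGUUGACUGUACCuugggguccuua
MIR181C: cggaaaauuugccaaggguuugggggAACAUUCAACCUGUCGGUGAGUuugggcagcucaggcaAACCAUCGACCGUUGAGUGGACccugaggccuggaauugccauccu

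Listed reads totalled 12794274 in HT29 spheres, 5806540 in HT29 parental cells, and about 2316877 and 3183436 in HCT15 spheres and HCT15 parental cells, whose values were deposited as RPKM. Levels are in CPM, reads of a miRNA per 1000000 listed miRNA reads of its library. Intervals are 95% intervals and cover counting error only, since the reads carry no molecular identifiers. A CPM is a share of the library, so in these bulk samples more cells of a kind and more RNA per cell cannot be told apart. All 9 miRNAs taken as markers of colorectal epithelium were detected in every library. Their summed level was 238778 and 174837 CPM in HT29 spheres and HT29 parental cells, and 23364 and 25010.4 CPM in HCT15 spheres and HCT15 parental cells. Of the blood-cell list, miR-223-3p was listed at 0 in all 4 libraries. The list summed to 484 and 483 CPM in HT29 spheres and HT29 parental cells and to 63.0 and 59.998 in those of HCT15. Most of the HT29 sum was miR-142-3p, at 367 CPM in spheres and 381 in parental cells. The highest of this list in HCT15 was miR-486-5p, at 35.0 CPM in spheres and 43.0 in parental cells. The stromal list did not exceed 20.8 CPM in any library. The neural list summed to 285 and 1253 CPM in HT29 spheres and HT29 parental cells and to 326 and 619 in those of HCT15, and the muscle list to 1159 in HT29 spheres, 166 in HT29 parental cells and 0 in both HCT15 libraries. Single miRNAs made up most of these sums: miR-128 of the neural list, at 273 and 1240.2 CPM in HT29 spheres and HT29 parental cells and 312 and 611 in those of HCT15, and miR-1 of the muscle list, at 1156 in HT29 spheres and 165 in HT29 parental cells. The epithelial sum in HT29 was mostly miR-192-5p, at 157860 CPM in spheres and 92120 in parental cells. In contrast, miR-194-5p, miR-200a-3p and miR-200b-3p had lower CPM in HT29 spheres. The highest of this list in HCT15 was miR-375, at 7566 CPM in spheres and 10473 in parental cells. There miR-192-5p, miR-200b-3p, miR-200c-3p and miR-141-3p had higher CPM in spheres, and the rest of the list had lower CPM. The part of these lists in the results on miR-181 was not tested.

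The family made up 0.498% of listed reads in HT29 spheres (interval 0.494 to 0.502) and 0.622% in HT29 parental cells (0.616 to 0.629). In HCT15 it made up 2.14% in spheres (2.12 to 2.16) and 1.30% in parental cells (1.29 to 1.31). The 4 guide-strand 5p arms held nearly all of it, at 98.3% and 97.9% of family reads in HT29 spheres and HT29 parental cells, and 96.5% and 94.3% in HCT15 spheres and HCT15 parental cells.

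miR-181a-5p, the arm studied in T cells, was the most abundant member in every library. It stood at 3095 CPM in HT29 spheres, 3690 in HT29 parental cells, 17578 in HCT15 spheres and 9738 in HCT15 parental cells. HCT15 was thus above HT29 in both cultures, and the cultures were ordered differently in the lines on this scale. Among all miRNAs of a library it ranked 42nd in HT29 spheres, 50th in HT29 parental cells, 16th in HCT15 spheres and 20th in HCT15 parental cells.

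miR-181b-5p, which has the same seed, was at 1208 CPM in HT29 spheres, 1660 in HT29 parental cells, 1777 in HCT15 spheres and 1459 in HCT15 parental cells. miR-181d, 1 base different from it, was at 529 CPM in HT29 spheres, 662 in HT29 parental cells, 775 in HCT15 spheres and 648 in HCT15 parental cells. Both spread less over the 4 libraries than miR-181a-5p did. miR-181c-5p, made from the same transcript region as miR-181d, was at 63.8 CPM in HT29 spheres, 74.7 in HT29 parental cells, 495 in HCT15 spheres and 412 in HCT15 parental cells. Unlike its neighbour, it was 5.51-fold higher in HCT15 than in HT29 parental cells.

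**Figure D1:**
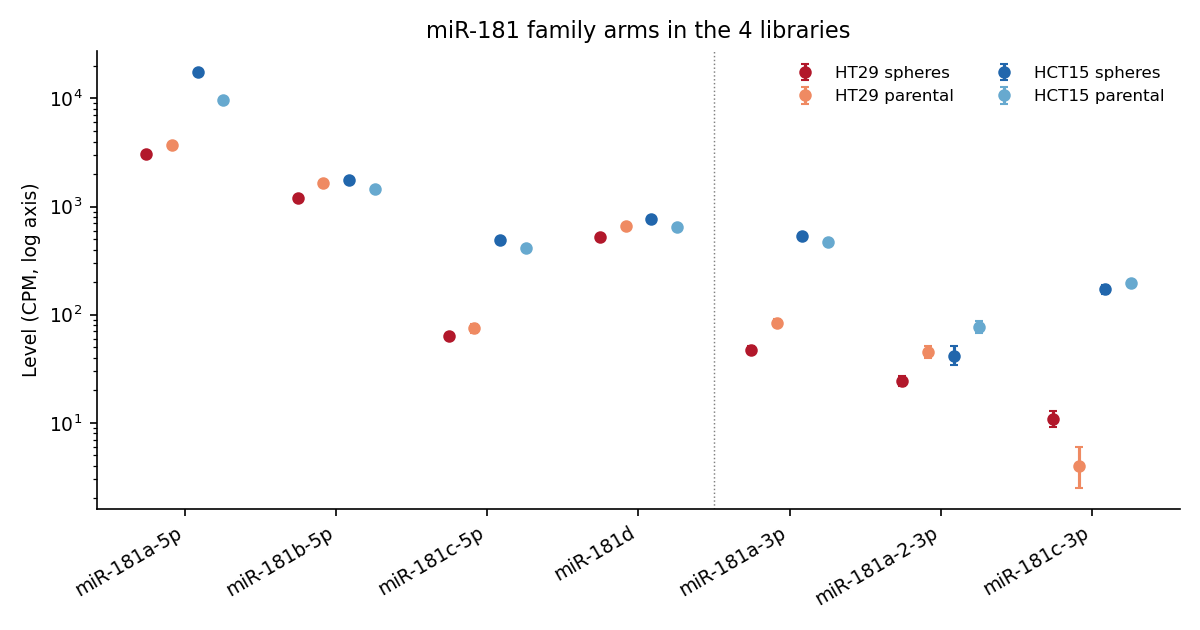
Level of each miR-181 arm in the 4 libraries, in CPM on a log axis, with spheres left of parental cells in each line; bars are 95% counting intervals and the dotted line separates 5p from 3p arms. miR-181b-5p and miR-181d spread less over the 4 libraries, whereas miR-181a-5p, miR-181c-5p, miR-181a-3p and miR-181c-3p are higher in both HCT15 libraries.

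Among passenger arms, miR-181a-3p of MIR181A1 was at 47.4 CPM in HT29 spheres, 84.2 in HT29 parental cells, 537 in HCT15 spheres and 472 in HCT15 parental cells. miR-181a-2-3p of MIR181A2 was at 24.4 CPM in HT29 spheres, 45.3 in HT29 parental cells, 41.9 in HCT15 spheres and 77.0 in HCT15 parental cells. The MIR181A1 arm was therefore far apart between the lines, and the MIR181A2 arm much less so. miR-181c-3p was the scarcest member in HT29, with 140 reads or 10.9 CPM in spheres and 23 reads or 3.96 CPM in parental cells. In HCT15 it had 399 reads or 172 CPM in spheres and 619 reads or 194 CPM in parental cells. The files also named miR-181b-3p, an arm of MIR181B1 outside the 7 members, at 3.44 CPM in HT29 spheres, 7.75 in HT29 parental cells, 21.6 in HCT15 spheres and 17.6 in HCT15 parental cells.

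Between lines, the log2 difference of HT29 minus HCT15, on log2(CPM + 1), was -0.56 in spheres and 0.19 in parental cells for miR-181b-5p, and -0.55 and 0.031 for miR-181d. It was -2.51 in spheres and -1.40 in parental cells for miR-181a-5p, and -2.94 and -2.45 for miR-181c-5p. The 3p arms gave -3.48 and -2.47 for miR-181a-3p, -0.76 and -0.75 for miR-181a-2-3p, and -3.86 and -5.30 for miR-181c-3p. Over miRNAs averaging 50 CPM or more in the culture, the median was 0.29 in spheres (216 miRNAs) and 0.71 in parental cells (259 miRNAs). With TMM, a scaling that matches libraries on most miRNAs, the parental differences were -0.025 for miR-181b-5p and -0.18 for miR-181d. No direction can therefore be given for these 2 arms in parental cells. All other differences of members kept their sign with TMM. These differences were not tested, because each side is 1 library. The lines were also deposited in different units, raw counts for HT29 and RPKM for HCT15.

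Shares within a library need no scaling between libraries, and they gave the make-up of the family directly. miR-181a-5p held 62.2% of the family's reads in HT29 spheres (61.8 to 62.5) and 59.3% in HT29 parental cells (58.8 to 59.8). In HCT15 it held 82.2% in spheres (81.9 to 82.6) and 74.9% in parental cells (74.5 to 75.3). Its share was thus higher in spheres than in parental cells of both lines, by 2.85 and 7.33 percentage points in HT29 and HCT15. miR-181b-5p held 24.3% in HT29 spheres, 26.7% in HT29 parental cells, 8.31% in HCT15 spheres and 11.2% in HCT15 parental cells, so its share was lower in spheres of both lines. There were 2.56 and 2.22 reads of miR-181a-5p for each of miR-181b-5p in HT29 spheres and HT29 parental cells, and 9.89 and 6.68 in HCT15 spheres and HCT15 parental cells.

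**Figure D2:**
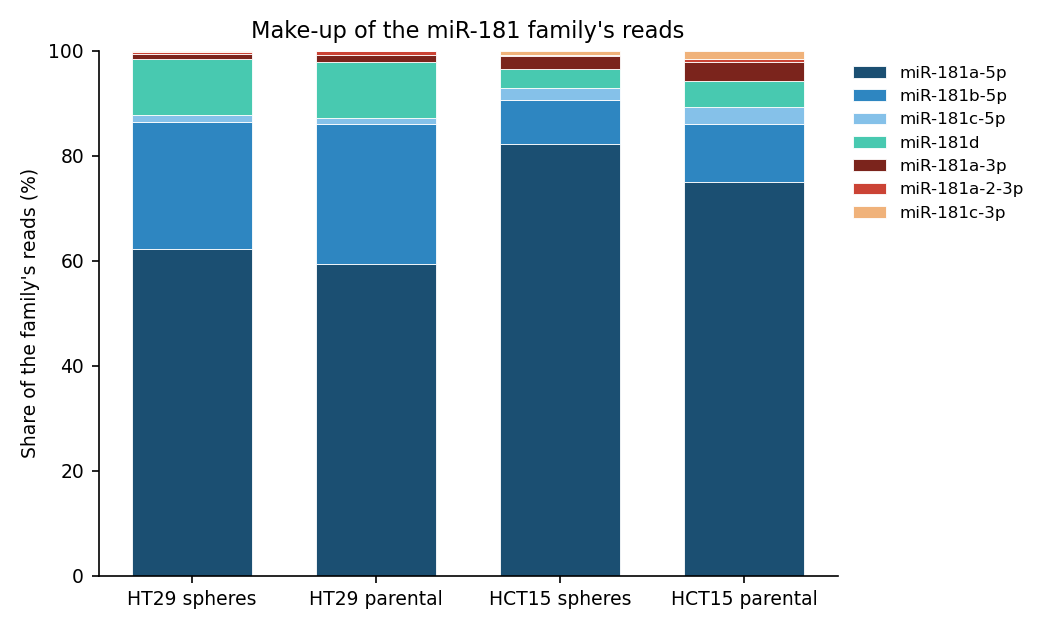
Share of the family's reads held by each of the 7 arms, in percent, with 1 bar per library and spheres left of parental cells in each line. miR-181a-5p holds 62.2% and 59.3% in HT29 spheres and HT29 parental cells and 82.2% and 74.9% in those of HCT15.

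Of the reads of both miR-181a passenger arms, the MIR181A2 arm miR-181a-2-3p made up 34.0% in HT29 spheres (312 of 918 reads, 30.9 to 37.2) and 35.0% in HT29 parental cells (263 of 752, 31.6 to 38.5). In HCT15 it made up 7.23% in spheres (97 of 1341, 5.90 to 8.75) and 14.01% in parental cells (245 of 1749, 12.4 to 15.7). The 2 HT29 libraries did not differ beyond counting error, while the HCT15 shares differed by -6.77 percentage points, spheres minus parental cells, and their intervals did not overlap. Both HCT15 shares were below both HT29 shares. These shares describe the arms, and are no measure of transcription of the gene copies.

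The passenger arms together made up 2.27% of all miR-181a reads in HT29 spheres (2.12 to 2.42) and 3.39% in HT29 parental cells (3.16 to 3.64). In HCT15 they made up 3.19% in spheres (3.02 to 3.36) and 5.34% in parental cells (5.10 to 5.59). The share was lower in spheres than in parental cells of both lines, with intervals that did not overlap in either.

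For miR-181c the lines went opposite ways, a difference between lines that was not tested. miR-181c-3p made up 14.6% of both miR-181c arms in HT29 spheres (140 of 956 reads, 12.5 to 17.05) and 5.03% in HT29 parental cells (23 of 457, 3.22 to 7.46). In HCT15 it made up 25.8% in spheres (399 of 1546, 23.6 to 28.1) and 32.1% in parental cells (619 of 1929, 30.01 to 34.2). The HT29 value in parental cells rests on 23 reads. The paired 5p arms of this locus kept a steady proportion: miR-181c-5p made up 10.8% and 10.1% of the reads of miR-181c-5p and miR-181d in HT29 spheres and HT29 parental cells, and 39.0% and 38.8% in HCT15 spheres and HCT15 parental cells. Between cultures of a line the intervals of this share overlapped, and between lines they did not.

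**Figure D3:**
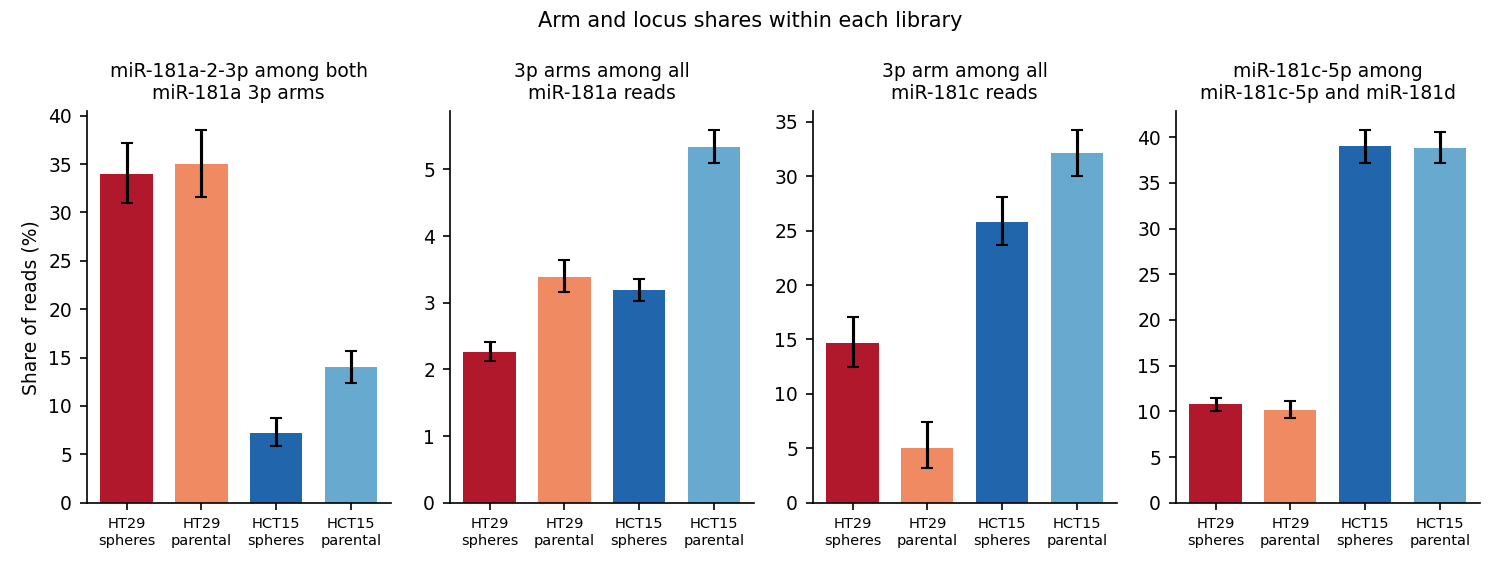
Shares of reads within each library, in percent from 0, for 4 pairs of miR-181 arms, with spheres left of parental cells in each line and 95% Clopper-Pearson intervals as bars. The miR-181a-2-3p share is 7.23% in HCT15 spheres and 14.01% in HCT15 parental cells, and the miR-181c-3p share is 14.6% in HT29 spheres and 5.03% in HT29 parental cells.

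To set spheres against parental cells, log2 ratios were taken after TMM scaling, which matches libraries on most miRNAs, with a prior count of 2. In HCT15 the 5p arms had ratios of 1.18 for miR-181a-5p (interval 1.16 to 1.20), 0.61 for miR-181b-5p (0.55 to 0.67), 0.59 for miR-181c-5p (0.48 to 0.71) and 0.59 for miR-181d (0.49 to 0.68). All 4 were above 0 under each of 6 scalings. miR-181a-3p had a ratio of 0.51 (0.40 to 0.62) and miR-181a-2-3p of -0.54 (-0.90 to -0.21), so the passenger arms of the 2 gene copies lay on opposite sides of 0. miR-181c-3p was at 0.15, with an interval of -0.032 to 0.34.

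In HT29 the 5p ratios were smaller, at 0.22 for miR-181a-5p (0.20 to 0.24), 0.016 for miR-181b-5p (-0.021 to 0.053), 0.24 for miR-181c-5p (0.076 to 0.42) and 0.15 for miR-181d (0.092 to 0.21). All 4 turned negative with total counts in place of TMM, from -0.23 to -0.46, so no direction can be given for them in HT29. The passenger arms miR-181a-3p at -0.35 (-0.53 to -0.18) and miR-181a-2-3p at -0.42 (-0.66 to -0.18) were below 0 under each scaling, miR-181a-3p by as little as -0.025 with the upper quartile. miR-181c-3p had the highest ratio of the family in HT29, 1.87 (1.30 to 2.64), and ranged from 1.42 to 2.19 over the scalings. Of the 7 members, miR-181a-2-3p alone was lower in spheres of both lines under each of the 6 scalings.

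**Figure D4:**
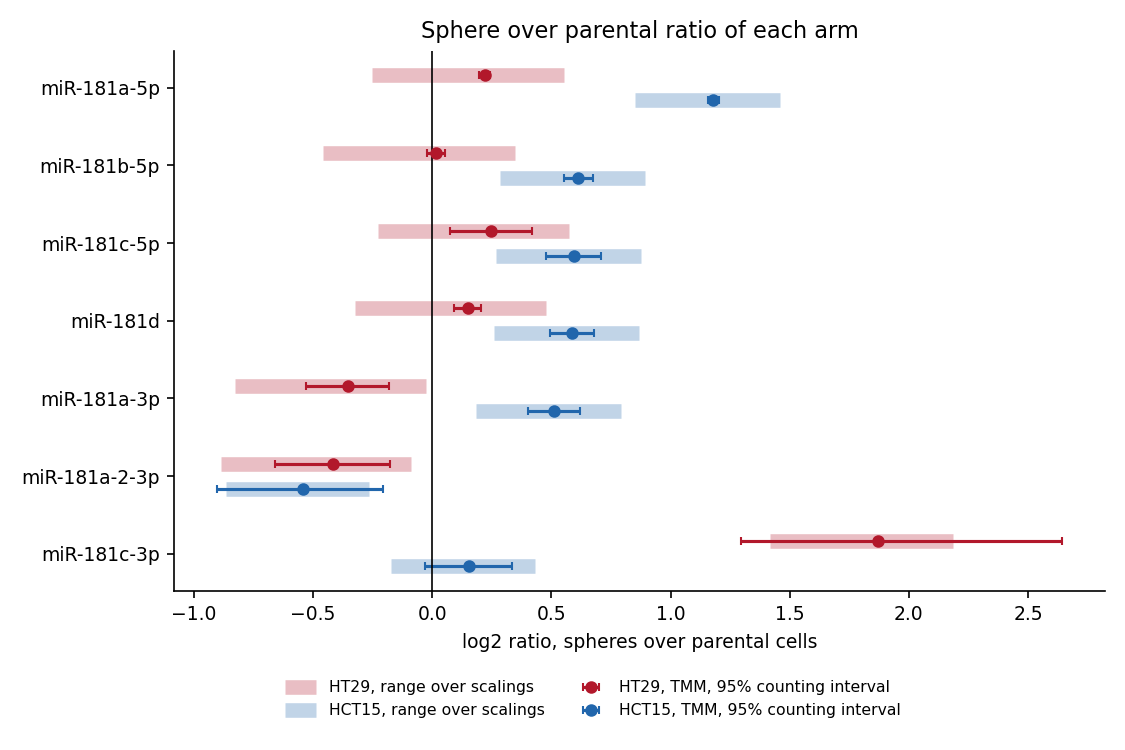
Log2 ratio of spheres over parental cells for each miR-181 arm in HT29 (red) and HCT15 (blue); points and thin bars are TMM ratios with 95% counting intervals, and wide bars are the range over 6 scalings. In HT29 the wide bars of all 4 5p arms cross 0, whereas in HCT15 they lie above it.

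Differences between members' ratios do not depend on the scaling. In HCT15 the ratio of miR-181a-5p exceeded those of its seed sharers, with differences of -0.57 (-0.63 to -0.50) for miR-181b-5p, -0.59 (-0.70 to -0.47) for miR-181c-5p and -0.59 (-0.69 to -0.50) for miR-181d, each minus miR-181a-5p. In HT29 the same differences were -0.20 (-0.25 to -0.16), 0.025 (-0.14 to 0.19) and -0.071 (-0.13 to -0.0093). The neighbours miR-181d and miR-181c-5p differed by -0.10 in HT29 (-0.27 to 0.081) and -0.0084 in HCT15 (-0.15 to 0.14), so no difference was detectable between them at this depth. miR-181a-2-3p minus miR-181a-3p was -0.063 in HT29 (-0.36 to 0.23) and -1.06 in HCT15 (-1.42 to -0.71).

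In HCT15, 1 of 7 members averaging 50 CPM or more was at least 2-fold higher in spheres, miR-181a-5p, against 4.37% of 206 miRNAs at that level, and 0 were at least 2-fold lower, against 2.91%. miR-181a-5p ranked eighth among the 206 by its ratio, and fell under 2-fold with total counts (0.85) and with totals without the 10 most abundant miRNAs (0.96). In HT29, 0 of 5 members at that level were at least 2-fold higher, against 11.1% of 226 miRNAs, and 0 at least 2-fold lower, against 21.2%. miR-181c-3p and miR-181a-2-3p were below that level there. The median ratio over the 7 members was 0.59 in HCT15 and 0.15 in HT29, where all miRNAs at that level had medians of 0.06 and -0.10.

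**Figure D5:**
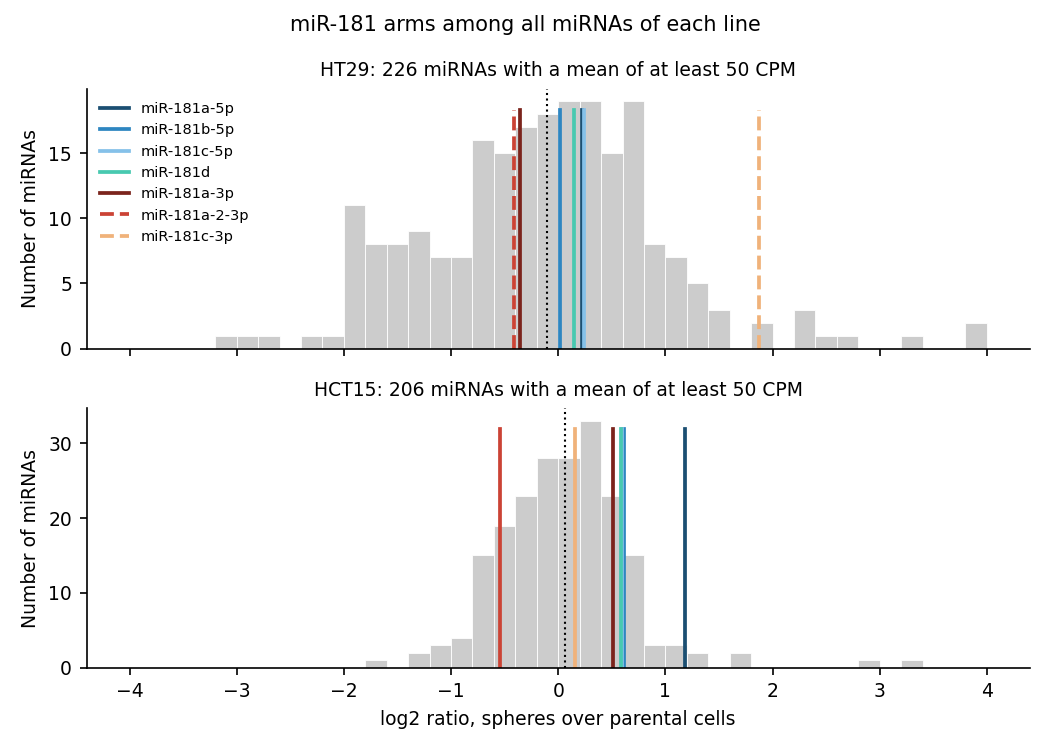
Number of miRNAs by log2 ratio of spheres over parental cells in each line, for miRNAs averaging 50 CPM or more (grey), with the median (dotted) and the 7 miR-181 arms as coloured lines, dashed where the arm was below that level. miR-181a-5p is at 1.18 in HCT15, in the upper tail, and at 0.22 in HT29, near the middle.

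Across both lines, spheres were compared with parental cells by limma on log2(TMM-scaled CPM + 1), with cell line as a block and the lines as the only replicates. Of 377 miRNAs tested, 0 passed a Benjamini-Hochberg adjusted p of 0.05 (0% called), and 25 had an unadjusted p under 0.05 (6.63%), none of them a member. miR-181a-5p had a log2 fold change of 0.70 (SE 0.38, limma adjusted p = 0.722) and a ratio above 0 in 2 of 2 lines with TMM, but in HCT15 alone with total counts, which gave -0.25 in HT29. miR-181c-3p had 0.91 (SE 0.55, limma adjusted p = 0.722) and miR-181a-2-3p -0.47 (SE 0.40, limma adjusted p = 0.743). Over 11 settings these fold changes ranged from 0.30 to 0.89 for miR-181a-5p, from 0.55 to 1.17 for miR-181c-3p and from -0.86 to -0.29 for miR-181a-2-3p. The other members ranged from 0.08 for miR-181a-3p to 0.42 for miR-181c-5p, with limma adjusted p-values from 0.789 to 0.978. The members' median was 0.37, against -0.10 over all 377. On these 4 libraries edgeR, DESeq2 and limma-voom on reads called 3, 5 and 9 miRNAs, and no member under any of them. With 1 residual degree of freedom, a difference between lines in the sphere ratio could not be tested.

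The chromosome 19 locus lies 38039 bases from MIR23A, of the miR-23a, miR-27a and miR-24-2 cluster on the other strand, whose miRNAs act in muscle, fat and blood cells. Of 6 arms of that cluster, 5 were tested by limma and 0 passed. The median ratio of all 6 arms was 0.41 in HT29 and 0.34 in HCT15. These include the untested arm, at 0 CPM in HCT15 spheres and 0.31 CPM in HCT15 parental cells. miR-27a-3p was at 5000 and 3989 CPM in HT29 spheres and HT29 parental cells, and at 5633 and 5869 CPM in HCT15 spheres and HCT15 parental cells. miR-24-3p was at 28604 and 26278 CPM in HT29 spheres and HT29 parental cells, and at 596 and 557 CPM in those of HCT15. miR-24-3p, which a second gene copy elsewhere also yields, was thus far higher in HT29 than in HCT15, but not all arms of the cluster shared this order. miR-24-2-5p, specific to this cluster, was at 148 and 177 CPM in HT29 spheres and HT29 parental cells, and at 214 and 177 CPM in those of HCT15. miR-27a-5p was at 152 and 114 CPM in HT29 spheres and HT29 parental cells, and at 466 and 509.5 CPM in those of HCT15.

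Beside the miR-181 family stand the miR-30 and miR-29 families, which also come from several gene copies. The 5p arms of miR-30 (5 arms) had a median ratio of 0.54 in HT29 and 0.54 in HCT15, and the 3p arms of miR-29 (3 arms) of -0.32 and 0.46. For the 4 5p arms of miR-181 these medians were 0.18 and 0.60. The medians hide a spread, since the miR-30 arms lay on both sides of 0 in HT29. There, 1 of 5 miR-30 arms and 1 of 3 miR-29 arms were at least 2-fold lower in spheres, against 21.2% of 226 miRNAs. In HCT15, 1 of 3 miR-29 arms was at least 2-fold higher in spheres, against 4.37% of 206 miRNAs.

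The miRNAs whose levels followed miR-181a-5p most closely over the 4 libraries were found by the Euclidean distance between log2(CPM + 1) values centred on each miRNA's own mean, among 233 miRNAs averaging 50 CPM or more over the 4 libraries. They were miR-182-5p (distance 0.23), miR-125a-5p (0.39), miR-4286 (0.56), let-7a-3p (0.60) and miR-10a-5p (0.61), against a median of 3.35 over all 233. miR-182-5p was at 17947 CPM in HT29 spheres, 18937 in HT29 parental cells, 86679 in HCT15 spheres and 57921 in HCT15 parental cells. The nearest member was miR-181c-5p, at 0.85, followed by miR-181a-3p at 1.19. miR-181b-5p, its neighbour at both gene copies, was at 1.82 and miR-181c-3p at 2.93. The distance is a description over 4 libraries, from both cultures of both lines, and was not tested. Each of the nearest miRNAs named outside the family was higher in both HCT15 libraries than in both HT29 libraries, as miR-181a-5p was.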

How the data were processed

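Per the labels' protocols, total RNA was turned into libraries by a TruSeq Small RNA kit. HT29 values are deposited raw read counts per mature miRNA and HCT15 values are deposited RPKM, per the file headers. The release given for the names is miRBase R19, but the name sets of the lines differed. Each HT29 file held 1921 names and each HCT15 file 2041, and 1882 names were in all 4. Some entries had an arm suffix in HCT15 but not in HT29. Whether the same release served both lines was not checked. Per the submitters' processing notes the build was hg19; positions here are GRCh38 (GENCODE 29, RefSeq). Aligner, trimming and the handling of multiply matching reads were not given in the sources used here.

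In HCT15 the value of 1 read rose with mature length, as length over length plus 9. RPKM were divided by it to give read equivalents, a step chosen after the files were seen: 0.263 for a 22-base miRNA in spheres, where the commonest low value was taken as 2 reads, and 0.162 in parental cells. Within 0.02 reads, 67.1% of 164 values under 10 reads in spheres and 67.7% of 434 in parental cells were whole, and 12 of 14 values of members. The other 2 were miR-181b-5p and miR-181d in HCT15 parental cells, at 4643.8 and 2063.2, which sum to 6707, so reads may have been divided between these names. A count of 0 allows for at most 3 reads, which is 0.234, 0.517, 1.29 and 0.942 CPM for HT29 spheres, HT29 parental cells, HCT15 spheres and HCT15 parental cells. Only 4 names stood at 1 read in HCT15 spheres, against 111 in HCT15 parental cells. Whether names with 1 read were left out of the HCT15 sphere values is not known. Read numbers, intervals and the limit for 0 in HCT15 spheres therefore rest on the value of 1 read chosen there.

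Names in all 4 files were scaled by TMM (edgeR 4.0.16) and tested with limma 3.58.1 (R 4.3.3, mean-variance trend, pseudocount 1) where 2 or more libraries reached 10 CPM; such a fold change understates that of scarce miRNAs. edgeR's test was not the main one because only the HT29 files hold counts. Within a line, ratios have exact conditional binomial intervals and shares Clopper-Pearson intervals; differences between ratios have normal intervals on the log scale (Python 3.11.15, scipy 1.17.1). limma was tested on simulated data. The p-values do not measure the spread between 2 lines alone, because limma moderates each miRNA's variance over all miRNAs tested. Each miRNA gave 1 residual degree of freedom, and the moderation added a median of 2.78. Alternatives were 5 other scalings, 2 other prior counts, 2 pseudocounts, no filter, no trend, no block, edgeR, DESeq2 1.42.0 and limma-voom. The members and lists were chosen with earlier results of these data known. Named miRNAs are the 7 members, seed sharers, up to 4 neighbours at chromosome 19, the 5 nearest to miR-181a-5p and marker lists; miR-181b-3p was added after the names were seen.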

Additional observations from a re-analysis of the deposited data

Results flagged for a closer look

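Some values moved in opposite directions in the 2 lines; with 1 library per group, none of these differences between lines was tested. The log2 ratio of spheres over parental cells of miR-181a-3p was -0.35 in HT29 and 0.51 in HCT15, and each kept its sign under the 6 scalings. The share of miR-181c-3p in both miR-181c arms was 9.61 percentage points higher in HT29 spheres than in HT29 parental cells, and fell by 6.28 points in HCT15 spheres. Its share of the reads of all 7 members was 0.156 points higher in HT29 spheres and fell by 0.690 points in HCT15 spheres. For miR-181c-5p the share of all 7 members was 0.0798 points higher in HT29 spheres, within counting error, and fell by 0.849 points in HCT15 spheres.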

How the results depend on the processing

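The count of miRNAs called across lines was 0 with limma on log2 CPM under each setting run, with 25 at an unadjusted p under 0.05 as reported, and 3, 5 and 9 with edgeR, DESeq2 and limma-voom on reads. Without the cell line as a block (no replicate block) limma called 0. For miR-181a-5p the HT29 ratio was -0.25 with total counts, 0.048 with totals without the 10 most abundant miRNAs, 0.36 with DESeq2 size factors, 0.51 with TMM on the line alone and 0.55 with the upper quartile. In HCT15 it was 0.85 with total counts, 0.96 without the 10 most abundant, 1.42 with DESeq2 size factors and 1.46 with the upper quartile. Total counts also turned the HT29 ratios of miR-181b-5p (-0.46), miR-181c-5p (-0.23) and miR-181d (-0.33), the HCT15 ratio of miR-181c-3p (-0.17), and the fold changes across lines of miR-181b-5p (-0.087), miR-181d (-0.033) and miR-181a-3p (-0.32). Totals without the 10 most abundant turned miR-181b-5p (-0.16) and miR-181d (-0.024) in HT29 and miR-181c-3p (-0.066) in HCT15. Against TMM, total counts lower every log2 ratio by a constant, -0.47 in HT29 and -0.33 in HCT15. For the share of miR-181a-2-3p in both passenger arms, rounding reads and using 1 value of a read for every length (chosen after seeing the data) could not move the value, since both arms have 22 bases and whole reads; they say nothing of its stability. Of the 5 miRNAs nearest to miR-181a-5p, 4 remained with a minimum of 10 CPM. Depth limits miR-181c-3p most, at 23 reads in HT29 parental cells.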
